A study of Saccharomyces cerevisiae with 41 samples.

Results

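Nucleotides 291 to 546 of yeast 18S rRNA form the second part of the 5' domain, the body of the small ribosomal subunit, up to the start of helix h18. They were chosen by position alone, as every row of the deposited table with a position in that range, and they number 256 of the 1800 nucleotides of the molecule. Reverse transcription drop-off was recorded at each of them in assembly intermediates and mature ribosomes of Saccharomyces cerevisiae. All strains were BY4741 derivatives, each with 1 tagged protein through which the particles were immunoprecipitated from cultures in dextrose or in galactose and raffinose medium at 30 °C. The reagents 1M7 and NAI acylate the ribose 2' hydroxyl of flexible nucleotides, DMS methylates adenines and cytosines whose pairing face is free, and the reverse transcriptase stops when it meets the adduct.

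The late 1M7 group held particles of nob1-TAP cells (2 samples, 20S pre-rRNA), rio1-HTP cells (3 samples, 20S), fun12-TAP cells with GAL::3HA-fap7 (2 samples, 20S, called 80S-like) and fun12-TAP cells (3 samples, 18S rRNA, called 80S). The mid-early 1M7 group held 20S pre-rRNA of enp1-HTP, ltv1-HTP, rio2-HTP and tsr1-HTP cells (2, 2, 2 and 3 samples). Untreated late controls were 18S rRNA of nob1-TAP (1 sample) and fun12-TAP cells (2 samples), and the 4 mid-early controls were 20S pre-rRNA of the 4 mid-early strains. NAI was used on fun12-TAP 18S (2 samples), rio1-HTP 20S (1) and tsr1-HTP 20S (2), with DMSO alone on the fun12-TAP and tsr1-HTP material (2 each). DMS was used on fun12-TAP 18S (3 samples), beside 3 untreated samples. The labels set the stage of every 1M7 group except Rio1, which was placed late from background knowledge of this kinase. Enp1, Ltv1, Rio2 and Tsr1 are factors of earlier cytoplasmic pre-40S particles, Nob1 is the nuclease that makes the 3' end of 18S rRNA, Fun12 is the initiation factor eIF5B, and Fap7 is an ATPase of the last maturation steps, whose loss lets 80S-like particles with uncleaved 20S pre-rRNA build up.

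The 41 samples came as 17 columns, each the authors' mean of 1 group, so no value below has a replicate SD. An SD or SE is the spread between the 4 purifications of a stage or between all 8, and p-values measure that spread alone. Depth was unknown, and the 4 columns of a stage share 1 control, so an error of the control moves all of them together. Over the 256 nucleotides the mean drop-off rate was 2.72% to 3.23% in the 8 1M7 columns and 2.90% to 3.13% in the 5 untreated columns. Averaged over the stretch, Nob1, Rio1, 80S-like and Rio2 lay above their control and 80S, Enp1, Ltv1 and Tsr1 below it, so reactivities are relative within a column. Reactivity below is the treated rate minus the matched control rate, put on a common scale by dividing it by the mean excess of a high band of the same column, the 8% of nucleotides that rank just under its top 2%. Values of 0.3 or more are called reactive, and a value below 0 means fewer stops than in the control.

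The 5' domain is the first part of the small subunit rRNA to be made and folded, and its helices carry the shoulder and lower body of the subunit. Within the stretch, h16 is a hairpin on the outer face of the shoulder and h17 runs down the body. With h18, which holds the decoding-centre loop just downstream, they meet at a junction bound by ribosomal protein uS4 (Rps9 in yeast). Small nucleolar RNAs pair with this rRNA during assembly, and U14, which is needed for 18S production, guides a methyl group onto C414 in it. The sequence is printed below with capitals at the nucleotides just 5' of the stops that were reactive in all 8 1M7 columns, and then for h16 by its place (nucleotides 479 to 509) with the predicted loop in capitals, because the strongest signals of the stretch lie there.
18S nucleotides 291 to 546: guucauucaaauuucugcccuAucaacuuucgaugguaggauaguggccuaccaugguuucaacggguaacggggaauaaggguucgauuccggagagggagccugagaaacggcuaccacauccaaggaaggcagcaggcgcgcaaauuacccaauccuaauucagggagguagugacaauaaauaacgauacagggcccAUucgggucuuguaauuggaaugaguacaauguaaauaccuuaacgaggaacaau
Nucleotides 479 to 509: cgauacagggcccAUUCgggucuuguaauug

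The DMS column shows how a listed position relates to the modified base. Of the 25 strongest DMS stops in the stretch, 24 had an adenine just 5' of the listed position and 1 a cytosine, and the base at the listed position was adenine in 12. Each position below therefore names the stop, and the nucleotide that carried the adduct is taken as the neighbour 1 nucleotide 5' of it. U494, for example, reports on U493.

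Most of the stretch was quiet. In 136 of 256 nucleotides (53.1%) no 1M7 column reached 0.3, against 55.9% over the molecule, and 3 stops, U313, U493 and U494, were reactive in all 8 columns (over the molecule 44 nucleotides, 2.45%). In the late columns 45 stops (17.6%) were reactive in Nob1, 53 (20.7%) in Rio1, 51 (19.9%) in 80S-like and 33 (12.9%) in 80S, against 17.5%, 16.7%, 15.6% and 16.5% over the molecule. In the mid-early columns there were 31 (12.1%) in Enp1, 49 (19.1%) in Ltv1, 56 (21.9%) in Rio2 and 31 (12.1%) in Tsr1, against 17.5%, 16.7%, 17.8% and 15.8%. The late and mid-early counts overlap, and the 80S count lies among the low ones with those of Enp1 and Tsr1. With NAI 20 (7.81%) were reactive in 80S, 27 (10.5%) in Rio1 and 27 (10.5%) in Tsr1, against 11.8%, 12.8% and 13.2% over the molecule, and with DMS 39 (15.2%) in 80S, against 14.5%. At 8 stops all 12 treated columns lay above their control (3.12%, over the molecule 3.28%): U313, G371, G388, A400, G418, U493, G496 and A506.

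**Figure D1:**
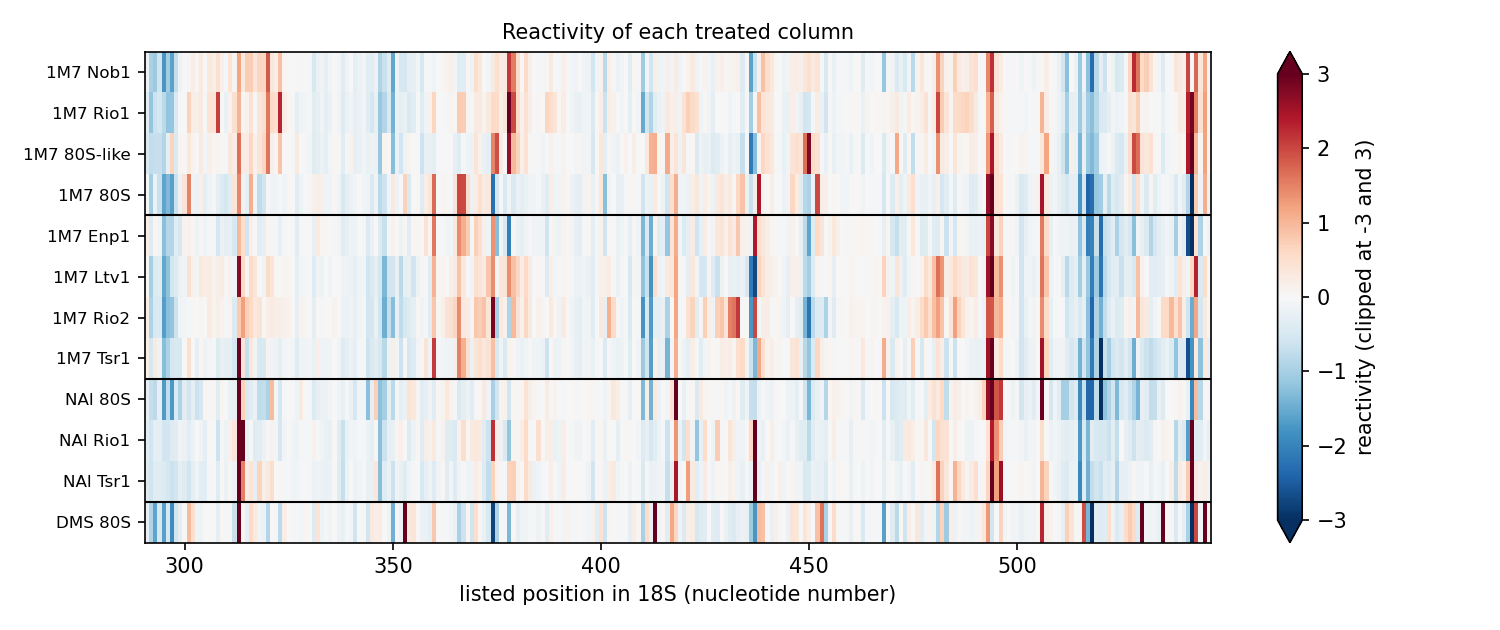
Reactivity (colour, clipped at -3 and 3) of each treated column (rows: 4 late 1M7 columns, 4 mid-early 1M7 columns, 3 NAI columns, DMS) at each listed position of the stretch (x axis). Red bands that run through most rows stand at 313, 418, 493, 494 and 506, and a blue block, where treated rates lay below the controls, at 515 to 525.

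The h16 hairpin held the most reactive loop. U494, which reports on U493 of the predicted AUUC loop, had drop-off rates of 13.7%, 12.3%, 14.0% and 14.9% in the late Nob1, Rio1, 80S-like and 80S columns, against 5.23% in the late control. In the mid-early Enp1, Ltv1, Rio2 and Tsr1 columns they were 13.0%, 21.5%, 10.3% and 16.7%, against 4.37% in the mid-early control. All 8 treated rates lay above their control, and the reactivities were 2.74 ± 1.23 in late and 3.59 ± 1.56 in mid-early columns (SD, n = 4 purifications each), with overlapping ranges. NAI gave 44.5% in 80S against 4.66% with DMSO, and 18.2% in Rio1 and 17.8% in Tsr1 against 3.67%. The NAI reactivity of 11.5 in 80S was the highest value of that column within the stretch. DMS did not raise the stop (4.88% treated, 6.99% untreated).

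U493, which reports on A492, had 1M7 reactivities of 1.44, 1.05, 1.30 and 2.62 in the late Nob1, Rio1, 80S-like and 80S columns and of 2.01, 2.51, 1.88 and 2.51 in the mid-early Enp1, Ltv1, Rio2 and Tsr1 columns. Its untreated rate was below 1% in all 5 controls, with 0.572% in the late and 0.790% in the mid-early control, so the signal stood on a low background. In the loop DMS also reached A492, at 5.62% treated against 0.892% untreated, and nucleotide C495, read at stop G496, at 3.57% against 1.03%. C495 and G496, which report on U494 and C495, were weaker with 1M7, with means over 8 columns that leave the loop average at 1.55 ± 0.58 (SD, n = 8 columns). Averaged over the 4 loop stops, 1M7 reactivity was 1.07, 0.79, 1.12 and 2.01 in Nob1, Rio1, 80S-like and 80S, and 1.44, 2.50, 1.46 and 2.01 in Enp1, Ltv1, Rio2 and Tsr1. NAI averaged 4.53 in 80S, 1.24 in Rio1 and 1.84 in Tsr1. With both reagents the mature 80S loop was above the Rio1 loop.

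On the 3' strand of h16, A505 was the 1 nucleotide that RNAfold left unpaired between pairs, and the stop that reports on it, A506, was raised by all 3 reagents. Its 1M7 reactivity was 0.05, 1.03, 0.33 and 2.46 in Nob1, Rio1, 80S-like and 80S, and 1.55, 1.61, 1.41 and 2.49 in Enp1, Ltv1, Rio2 and Tsr1. The 4 mid-early values and 80S lie above Nob1, Rio1 and 80S-like. NAI gave 2.94 in 80S, 0.52 in Rio1 and 1.02 in Tsr1, and DMS 2.28 in 80S. RNAfold left a single nucleotide unpaired within a helix strand at 5 other places in the stretch, and mean 1M7 reactivity at their stops ranged between -0.75 at G347 and 0.46 at A323.

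Upstream, U313 was the other stop reactive throughout, and it reports on A312. Its rates were 13.6%, 13.0%, 14.9% and 12.1% in Nob1, Rio1, 80S-like and 80S against 9.03% in the late control, and 10.8%, 16.8%, 10.3% and 15.6% in Enp1, Ltv1, Rio2 and Tsr1 against 7.75% in the mid-early control. NAI gave 40.1% in 80S against 6.17% with DMSO, and 41.8% in Rio1 and 23.7% in Tsr1 against 8.13%. DMS gave 24.6% against 10.2%. U313 thus stood above its control with 1M7 and NAI in 18S and 20S RNA, and with DMS in 18S rRNA, the RNA that DMS was used on. C314, next to it, responded mostly to NAI, with reactivities of 0.68 in 80S, 3.67 in Rio1 and 1.50 in Tsr1.
U313: cugcccuAucaacuuu
U494: gggcccaUucgggucu
A506: gucuuguAauuggaau
G418: acauccaAggaaggca
The capital in each line is the nucleotide just 5' of the named stop.

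G418 reports on A417, which lies between the U14-guided Cm414 and Am420. Its 1M7 reactivity was 0.26, 0.20, 0.41 and 1.08 in Nob1, Rio1, 80S-like and 80S, and 1.11, 1.19, 1.18 and 1.08 in Enp1, Ltv1, Rio2 and Tsr1. The mid-early columns and mature 80S lie close together, and the 3 late columns with 20S pre-rRNA lie below them. NAI raised the stop to 15.1% in 80S against 2.15% with DMSO, and to 11.1% in Rio1 and 14.8% in Tsr1 against 2.91%.

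**Figure D2:**
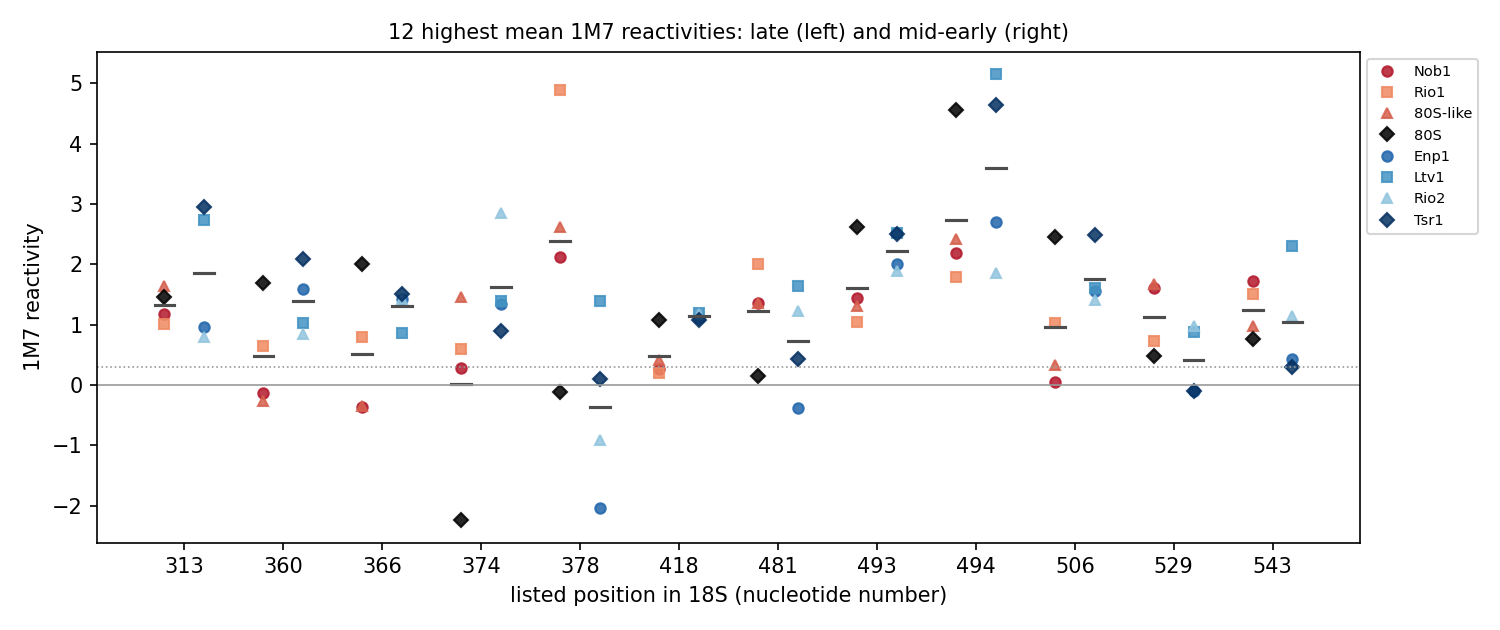
1M7 reactivity (y axis) at the 12 stops with the highest mean over 8 columns (x axis, listed position in 18S); each point is 1 column, late columns left and mid-early columns right, and the dark bars are the means of 4. U494 has the highest mean (3.17), and at 374 and 378 single columns lie far below 0.

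The other stops among the 12 highest were less even. A378, A481 and A529 had high late values outside 80S. At A481 the stages overlapped, with 1.37, 2.01, 1.36 and 0.15 in Nob1, Rio1, 80S-like and 80S, and -0.39, 1.64, 1.23 and 0.44 in Enp1, Ltv1, Rio2 and Tsr1. A378 had 2.11, 4.89, 2.63 and -0.12 in Nob1, Rio1, 80S-like and 80S, and -2.04, 1.40, -0.91 and 0.11 in Enp1, Ltv1, Rio2 and Tsr1, on a high untreated rate of 12.3% in the late and 13.4% in the mid-early control. A360 and A366 had the reverse order among the late columns, with 1.70 and 2.00 in 80S, against -0.27 and -0.36 in 80S-like. C543, which reports on A542, was above its control in all 8 1M7 columns, with 0.29 in Tsr1 as the lowest and 2.30 in Ltv1 as the highest value. DMS also raised C543, to 9.46% against 2.23%.

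By windows of 32 nucleotides, reactive stops were unevenly spread. Window 323 to 354, most of which RNAfold placed in a hairpin of 9 base pairs (nucleotides 321 to 347), held 0 or 1 reactive stop in each 1M7 column. Its loop averaged -0.09 ± 0.07 (SD, n = 8 columns), and 2 of its 32 stops were reactive in any 1M7 column. Window 355 to 386 held 7, 10, 7 and 8 in Nob1, Rio1, 80S-like and 80S and 9, 12, 14 and 10 in Enp1, Ltv1, Rio2 and Tsr1. The first and last windows were the uneven ones between columns. Window 291 to 322 held 11, 12, 8 and 5 in the late columns in the same order and 2, 8, 5 and 4 in the mid-early columns. Window 515 to 546, which ends at h18, held 11, 8, 10 and 3 in the late and 1, 5, 8 and 0 in the mid-early columns. In both, 80S had the lowest late count and Enp1 or Tsr1 the lowest mid-early count, and the stage ranges overlap.

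**Figure D3:**
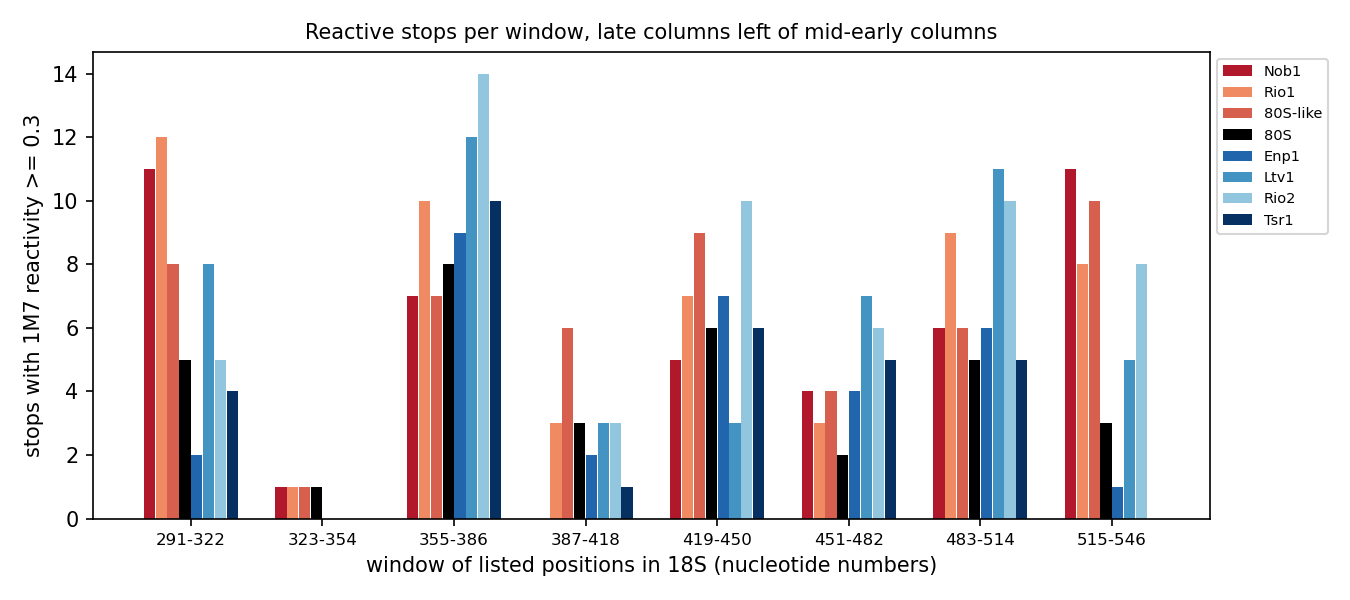
Number of stops with a 1M7 reactivity of at least 0.3 (y axis) in each window of 32 listed positions (x axis), 1 bar per column, with the 4 late columns left of the 4 mid-early columns. Window 323 to 354 has 0 or 1 in each column, and the first and last windows differ most between Nob1, Rio1 and 80S-like on the one side and 80S on the other.

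Secondary structure was predicted with RNAfold from the stretch alone, which left 112 nucleotides unpaired and 144 paired, in 7 hairpins with a predicted free energy of -75.0 kcal/mol. It is a prediction without proteins or the rest of the molecule, and folding from nucleotide 1 kept the state of 218 of 256 nucleotides and the loops of 5 of the 7 hairpins. In 80S, 22.5% of stops that report on predicted unpaired nucleotides were reactive with 1M7, against 5.56% for paired ones, and with DMS the shares were 27.9% and 5.56%. In Rio1 the 1M7 shares were 24.3% and 18.1%, and in Nob1 19.8% and 16.0%. The median reactivity of unpaired minus paired positions was above 0 in each of 8 1M7 columns, with a mean of 0.055 ± 0.036 (SD, n = 8 columns). That difference was 0.0065 with the fold from nucleotide 1. With NAI the median at unpaired positions was -0.157 in 80S, -0.072 in Rio1 and -0.089 in Tsr1, and at paired positions -0.050, -0.074 and -0.051, so the median was lower at unpaired positions in 80S and Tsr1. The share of reactive stops was higher at unpaired positions in each NAI column. It was 11.7% against 4.86% in 80S, 13.5% against 8.33% in Rio1 and 11.7% against 9.72% in Tsr1. Of the 12 stops with the highest mean 1M7 reactivity, 8 reported on predicted unpaired nucleotides. The 4 others, A378, A481, A366 and U374, reported on guanines in predicted pairs. With the fold from nucleotide 1 the count of 8 was 7, as A542, read at stop C543, was paired in that fold.

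DMS marked a partly different set of adenines. Of its 10 strongest stops, 9 reported on adenines that RNAfold left unpaired, and 8 did so with the fold from nucleotide 1. The sequence below has capitals at those 10 adenines.
18S nucleotides 291 to 546: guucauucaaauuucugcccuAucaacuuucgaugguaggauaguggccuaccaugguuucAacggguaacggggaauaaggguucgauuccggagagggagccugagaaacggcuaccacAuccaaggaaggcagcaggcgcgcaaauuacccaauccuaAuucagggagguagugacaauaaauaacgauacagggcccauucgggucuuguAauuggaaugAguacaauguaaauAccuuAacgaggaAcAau
A535, which reports on A534 in the predicted AAC loop of nucleotides 530 to 540, reached 43.2% with DMS against 6.47% untreated. With 1M7 its reactivity in 80S was -0.04, and with NAI -0.38, so both acylating reagents left this stop at or below its control. A353 reached 38.6% with DMS against 7.52% untreated, and in 80S it had a reactivity of 0.70 with 1M7 and of -0.20 with NAI. U413, which reports on A412, reached 18.6% with DMS against 3.41%, and C530 reached 16.5% against 1.52%. At both, NAI in 80S lay between -0.26 and 0.29. The hairpin of nucleotides 530 to 540 is written ccuuAACgagg with its loop in capitals, and its loop averaged 3.36 with DMS in 80S and -0.09 with 1M7 in 80S. That loop was not in the fold from nucleotide 1. Only 3 of the 10 strongest DMS stops, U313, A506 and C543, were also among the 12 highest 1M7 means.

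The comparison of late with mid-early particles asks where the flexibility of the rRNA changes as the pre-40S particle matures. Of the 256 nucleotides, 66 averaged 0.1 or more across the 8 columns and were tested, and 190 were not. None was called by limma at an adjusted p of 0.05, against 6.15% of the 504 nucleotides tested over the molecule (31 calls). An unadjusted p below 0.05 was found at 8 of the 66 and at 103 of the 504, which is 20.4%, and limma without the trend also called 0 of the 66. The median log2 difference was 0.07 in the stretch and -0.29 over all 504. Differences are on the scale of log2(reactivity + 0.1), with values below 0 set to 0, so changes of low values are understated.

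A545 came closest among the rises. It lies at the end of the stretch, next to h18, and reports on A544. Its reactivity was 1.17, 1.23, 1.20 and 1.09 in Nob1, Rio1, 80S-like and 80S, and -0.06, 0.55, 0.28 and 0.28 in Enp1, Ltv1, Rio2 and Tsr1, without overlap. The log2 difference was 2.03 (SE 0.63, limma adjusted p = 0.088), and 0 settings with all 8 columns brought it below 0.05. NAI gave 0.03 in 80S, -0.07 in Rio1 and 0.18 in Tsr1, and DMS raised the stop in 80S to 13.2% against 2.03%.

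The 3 stops without overlap in the other direction were G496, C314 and G418. At G418 the gap was very small, with 80S at 1.079 and Tsr1 at 1.083. At G496 in the h16 loop the late values were 0.22, 0.09, 0.24 and 0.42 in Nob1, Rio1, 80S-like and 80S, and the mid-early values 0.70, 1.36, 1.12 and 0.61 in Enp1, Ltv1, Rio2 and Tsr1 (log2 difference -1.63, SE 0.55, limma adjusted p = 0.12). With no control subtracted G496 was called at -1.15 and G418 at -0.87. At C314 the late values were 0.26, 0.03, 0.23 and -0.10 and the mid-early values 0.52, 0.59, 1.22 and 0.39 in the same order (-1.86, SE 0.64, limma adjusted p = 0.12). In all, late and mid-early columns did not overlap at 4 of 66 tested stops, 1 higher and 3 lower, against 13.7% of the 504 tested nucleotides. NAI at G496 gave 2.11 in 80S, 0.76 in Rio1 and 2.56 in Tsr1, the order of the same 3 particles with 1M7.

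Among the other stops with the smallest p-values, A323 differed by 2.36 on the log2 scale (SE 0.89, limma adjusted p = 0.16), and U374, A360, G372, G365 and A366 had differences between -2.05 and -1.36, none called. At A323 the late values were 0.90, 2.28, 0.87 and -0.07 in Nob1, Rio1, 80S-like and 80S, and the mid-early values lay between -0.27 and 0.17. At each of these stops 80S lay outside the range of the other 3 late columns, though at G372 only slightly (0.25, against 0.10 in Rio1). It was the lowest late value at A323 and U374, and the highest at A360, G372, G365 and A366.

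Mature 80S is the only 1M7 column of 18S rRNA, and without it the late columns are all of 20S pre-rRNA. The control subtracted from the late columns was still of 18S rRNA, and that of the mid-early columns was of 20S pre-rRNA. Wherever matched controls were subtracted, stage therefore cannot be told apart from the RNA of the control. The fit without 80S tested 76 stops of the stretch and called 13. Of these 7 were higher in late particles, against 10.1% of 524 nucleotides over the molecule, and 6 were lower, against 13.0%. Set against those shares, 7 and 6 of 76 are near or below the background. Late and mid-early columns then did not overlap at 9 stops in the higher and 10 in the lower direction, against 34.9% of the 524.

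The 7 higher stops were U319, U320 and A323 near the 5' end of the stretch, A378, and U528, A541 and A545 near h18. At U320 Nob1, Rio1 and 80S-like had rates of 11.9%, 10.9% and 10.5%, against 4.69% in the late control, while the mid-early columns had 4.51% to 6.27%, against 4.34% in their control. The reactivities were 1.67 ± 0.15 (SD, n = 3) and 0.23 ± 0.24 (n = 4), and the log2 difference was 2.65 (SE 0.58, limma adjusted p = 0.016). In 80S, U320 had 4.56%, at the level of the control. U319 (2.63, SE 0.41, limma adjusted p = 0.0046) and A323 (3.29, SE 0.57, limma adjusted p = 0.0069) had the same pattern, with 80S at -0.56 and -0.07. These 3 stops lie at or just before the foot of the first predicted hairpin. Mid-early values ran from -0.45 to 0.04 at U319 and from -0.27 to 0.17 at A323, and those below 0 were set to 0. With no control subtracted U320 and A323 were called, and U319 was not (0.55, limma adjusted p = 0.066).

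A541 had rates of 18.2%, 19.5% and 19.1% in Nob1, Rio1 and 80S-like and of 8.54% in 80S, against 10.4% in the late control. In the mid-early columns it had 6.70%, 15.0%, 13.3% and 8.17% in Enp1, Ltv1, Rio2 and Tsr1, against 15.2% in their control. All 4 mid-early values thus lay below the control, and the log2 difference of 4.55 (SE 0.42, limma adjusted p = 0.00041) is measured against that floor. With no control subtracted it was 0.61 (limma adjusted p = 0.11). U528 behaved alike, with 3.72 (limma adjusted p = 0.0060) and, with no control subtracted, 0.82 (limma adjusted p = 0.093).

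The 6 lower stops were A360, G365, A366, G418, G496 and A506. At A360 the late columns Nob1, Rio1 and 80S-like had -0.14, 0.65 and -0.27, and 80S had 1.70, within the mid-early range of 0.84 to 2.09. At A366 they had -0.36, 0.79 and -0.36, and 80S had 2.00, above the mid-early values of 0.86 to 1.52. Of the 13 stops, 80S lay within the mid-early range at 7, beyond it at 3 and between the 2 sets at 3 (A545, G418 and G496). At G418 80S lay only just under the lowest mid-early value. With 1 common control for all columns 8 of the 13 were called again in the same direction, and with no subtraction also 8.

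**Figure D4:**
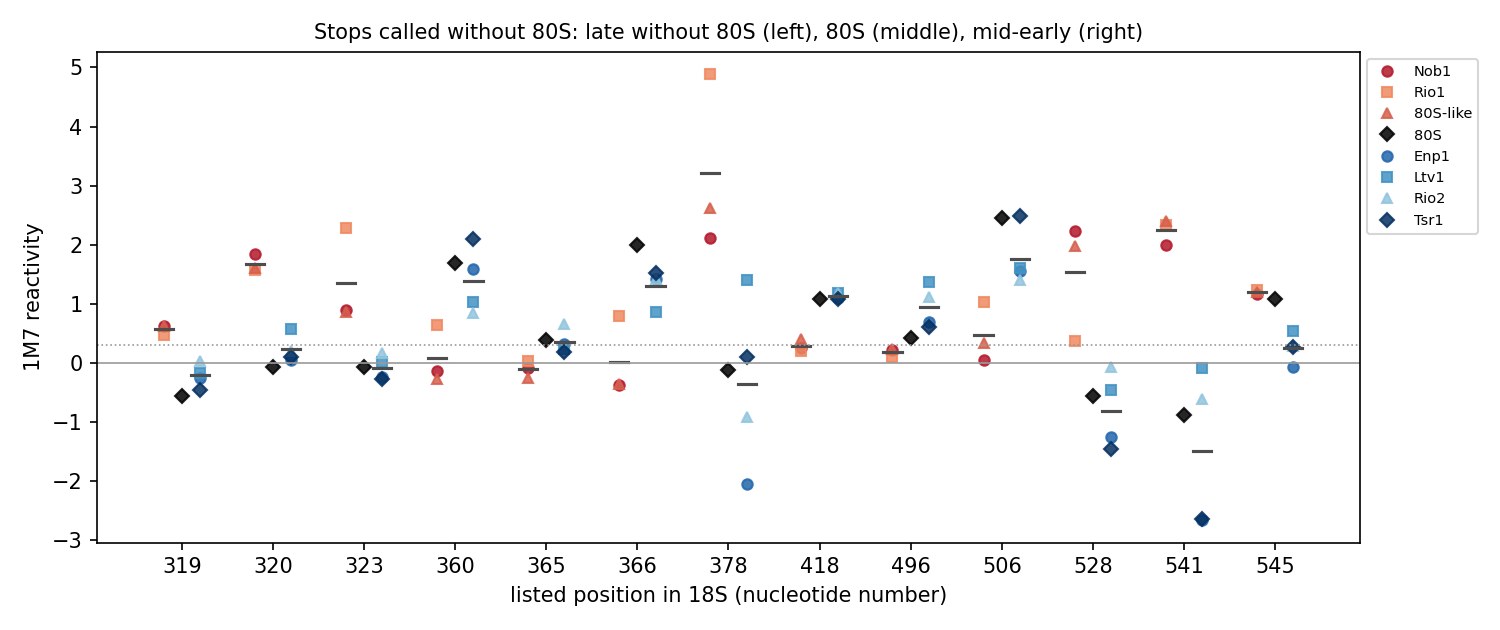
1M7 reactivity (y axis) at the 13 stops called when 80S was left out (x axis, listed position): Nob1, Rio1 and 80S-like left, 80S in the middle, the 4 mid-early columns right, with bars for the means of the left and right sets. At 319 and 320 the black 80S symbol lies below the mid-early columns, at 323 it lies among them, and at 545 it lies beside the late ones.

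Pairs of columns were set side by side without a test, since each has 1 column a side, and a stop is counted as different where the reactivities differ by 0.5 or more. The 80S and 80S-like columns, both from Fun12 purifications and with the same control, differed at 74 stops of the stretch, with 80S higher at 29 and lower at 45, against 27.9% of 1799 nucleotides over the molecule. Between Rio1 and Tsr1 74 stops differed, with Rio1 higher at 53 and lower at 21, against 26.8%. Between 80S and Tsr1 31 differed (17.2% over the molecule), between Tsr1 and Enp1 20 (9.67%) and between 80S-like and Nob1 24 (9.67%). With NAI 57 differed between 80S and Tsr1 (16 higher and 41 lower in 80S, 22.3% over the molecule) and 32 between Rio1 and Tsr1 (14.0%). The count of 74 is 28.9% of the stretch, and the other shares also lie near those of the molecule or below. The divisor of the scale was 2.13 percentage points in 80S and 3.60 in 80S-like, which widens departures from the control in 80S. The 80S and 80S-like particles also come from different strains, which cannot be told apart from the maturity of the rRNA.

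Stops higher in 80S than in 80S-like were led by A366 (2.00 and -0.36), A438 (2.44 and 0.09), A506 (2.46 and 0.33), U494 (4.55 and 2.43) and A367 (1.98 and -0.06). At each of these stops the rate itself was higher in 80S, as at A438 with 11.2% in 80S against 6.34% in 80S-like. The rates were closest at U494, with 14.9% in 80S and 14.0% in 80S-like. Stops lower in 80S were led by A542 (-2.99 and 3.80), U450 (-0.93 and 2.78), U374 (-2.24 and 1.47), A541 (-0.88 and 2.41) and A378 (-0.12 and 2.63). All 5 are strong stops of untreated RNA, at 10% or more in the late control, with 15.4% at A542 as the highest, and the 80S rate lay below the control at each.

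Between Rio1 and Tsr1 the largest rises were at A541, A378, A542, A520 and A323, and the largest falls at U494 (1.80 and 4.64), U313 (1.01 and 2.96), U350, U493 (1.05 and 2.51) and A506 (1.03 and 2.49). Of the 5 falls, 4 are among the most reactive stops of the stretch, and 3 of those lie in h16. At U494 the rates were 12.3% in Rio1 and 16.7% in Tsr1. The 1M7 divisor was 3.92 percentage points in Rio1 and 2.67 in Tsr1, which widens departures from the control in Tsr1. Rio1 and Tsr1 also have different controls with 1M7. With NAI, 80S exceeded Tsr1 most at U494, U313, U493 (2.60 and 0.64), A506 (2.94 and 1.02) and G418 (3.74 and 2.46). The NAI divisor was 3.45 percentage points in 80S and 4.83 in Tsr1, which widens departures from the control in 80S. At G418 the NAI rates themselves were close, at 15.1% in 80S and 14.8% in Tsr1. U313, U493, U494 and A506 were thus lower in Rio1 than in Tsr1 with 1M7. In the NAI set, which has 1 DMSO column for both, the Rio1 rate lay below that of Tsr1 at U493 (3.14% and 3.60%) and A506 (5.05% and 6.78%) and above it at U313 (41.8% and 23.7%). At U494 the NAI rates were 18.2% in Rio1 and 17.8% in Tsr1, while the scaled reactivities were 2.37 and 2.93, as the divisor was 6.15 percentage points in Rio1 and 4.83 in Tsr1.

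The stretch holds 6 nucleotides known to be modified in yeast, 4 with a 2'-O-methyl group and 2 pseudouridines, each guided by a small nucleolar RNA: the pseudouridines at 302 (snR49) and 466 (snR189), Cm414 (U14), Am420 (snR52), Am436 (snR87) and Am541 (snR41). A 2'-O-methyl group removes the hydroxyl that 1M7 and NAI attack, and it can slow reverse transcriptase on its own. In the lines below the capital is the modified adenine and the stop is the nucleotide after it.
A437 after Am436: ggcgcgcAaauuaccc
A542 after Am541: aacgaggAacaauugg
A542 had the highest mean untreated rate of the stretch and was the strongest stop in 4 of the 5 controls (A378, at 19.1%, was in the Tsr1 DMSO column), with 15.4% in the late control, 16.2% in the mid-early control, 14.3% and 9.10% in the 80S and Tsr1 DMSO columns and 28.0% in the control of the DMS set. Treated columns ran on both sides of these values. With 1M7 the rates were 15.2%, 26.6%, 29.0% and 8.98% in Nob1, Rio1, 80S-like and 80S, and 4.72%, 18.1%, 11.4% and 11.4% in Enp1, Ltv1, Rio2 and Tsr1. With NAI they were 7.65% in 80S, 39.7% in Rio1 and 27.9% in Tsr1. The NAI rate in 80S lay below its DMSO column, while those of the 20S pre-rRNA lay above theirs.

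A437 had the same contrast between 18S and 20S RNA with NAI, at 4.76% in 80S against 7.20% with DMSO, and at 34.7% in Rio1 and 21.1% in Tsr1 against 5.34%. With 1M7 the 20S columns did not share it: A437 had 6.76%, 9.56% and 4.67% in Nob1, Rio1 and 80S-like against 9.31% in the late control, and 20.7%, 4.04%, 19.4% and 9.44% in Enp1, Ltv1, Rio2 and Tsr1 against 13.0%. A421, after Am420, had 2.23% with NAI in 80S against 2.46%, and 6.51% in Rio1 and 9.28% in Tsr1 against 3.27%. At the 3 stops after methylated adenosines the NAI rate was thus above DMSO in both 20S columns and below it in 80S. The same signs were found at 19 of 256 stops of the stretch (7.42%), against 6.50% of 1799 nucleotides over the molecule, and they included stops after nucleotides with no listed modification, such as U374 (10.1% in 80S against 13.5%, and 24.6% in Rio1 and 14.4% in Tsr1 against 11.1%). With 1 NAI column of 18S and 2 of 20S, which share 1 DMSO column, no test was possible. C415, after Cm414, stayed below 2% in all 17 columns, with NAI at 1.50% in 80S against 1.51%, and at 0.762% in Rio1 and 0.766% in Tsr1 against 1.17%. The stops after the pseudouridines were also weak, with 0.870% to 3.06% at U303 and 0.193% to 0.539% at G467.

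**Figure D5:**
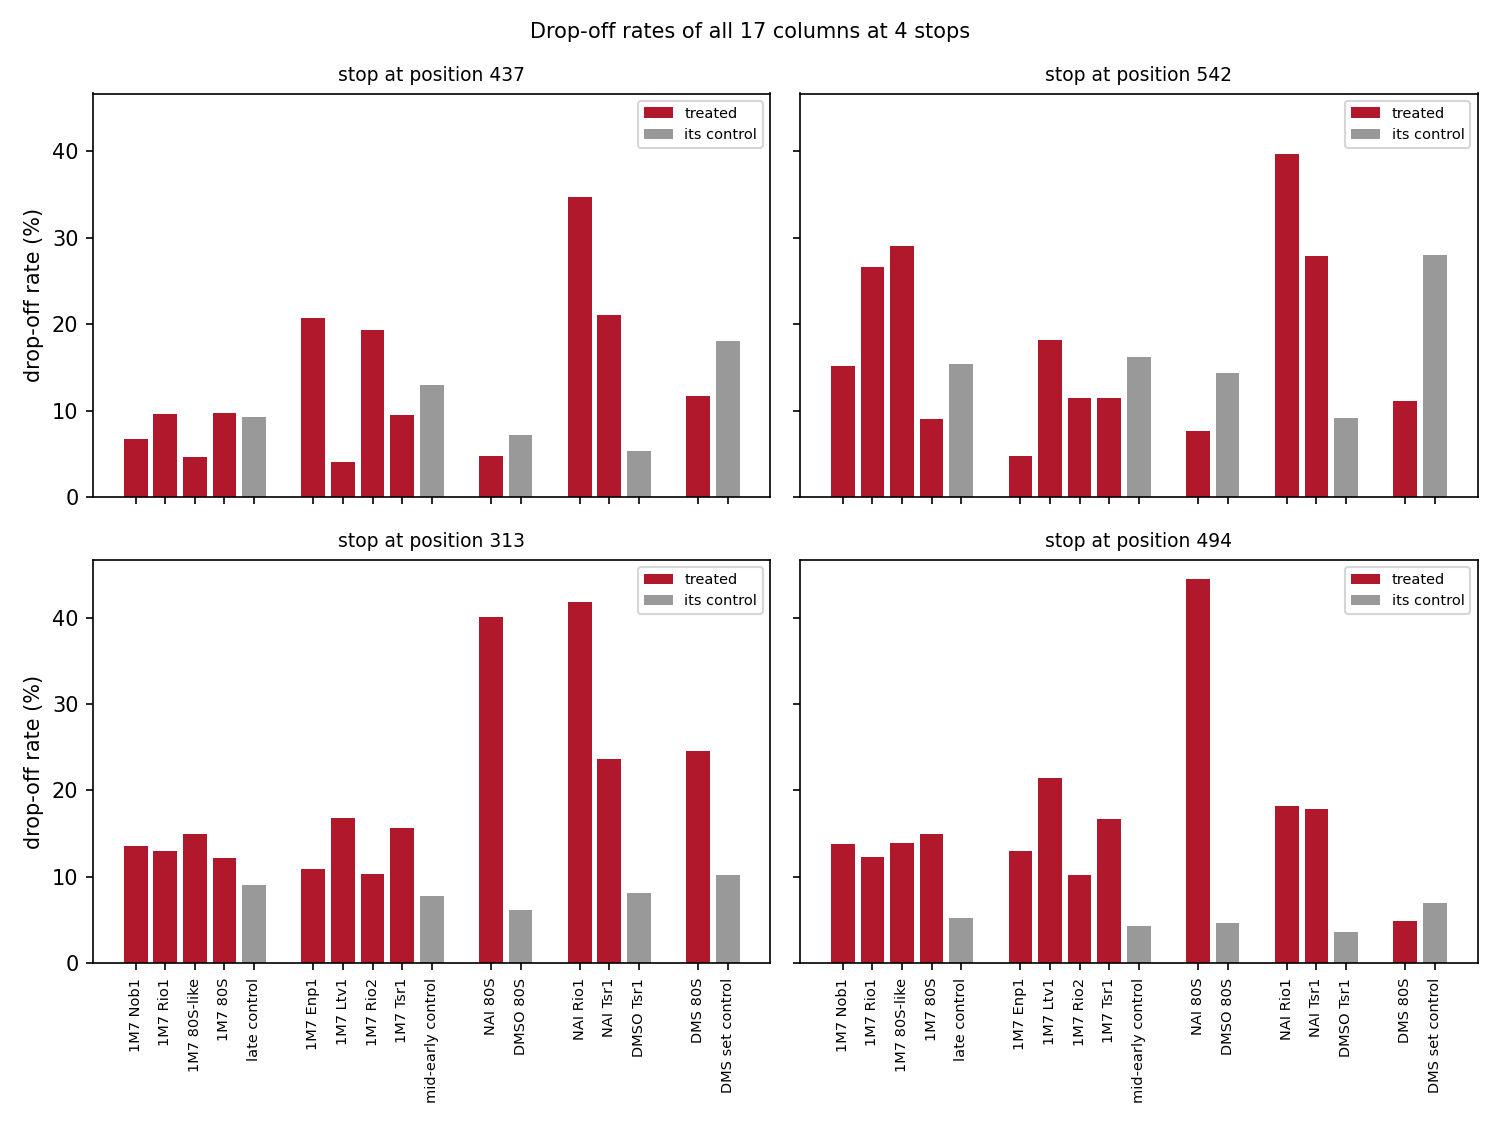
Drop-off rates in percent (y axis) of all 17 columns at the stops after Am436 (437) and Am541 (542), at 313 and at 494, with treated columns in red and the control of each set in grey to their right. At 437 and 542 NAI lies above DMSO in Rio1 and Tsr1 and below it in 80S, whereas at 313 and 494 it lies above DMSO in all 3.

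Adenines were 5 of the 6 strongest stops of untreated RNA. The 6 highest mean untreated rates were at A542 (16.6%), A378 (14.1%), A541 (12.7%), U374 (12.5%), A518 (11.4%) and A410 (10.8%). At A518 the treated rate was below the control in all 12 treated columns, with reactivities of -2.29, -1.25, -1.33 and -2.27 in Nob1, Rio1, 80S-like and 80S and of -2.02, -2.07, -2.36 and -2.11 in Enp1, Ltv1, Rio2 and Tsr1. In the stretch 24 stops (9.38%) were below the control in all 12, over the molecule 8.28%, and 8 of them, U517, A518, C519, A520, A521, G523, U524 and A525, lie together just upstream of the DMS-reactive loop. There the mean over 8 1M7 columns ranged between -1.96 at A518 and -0.27 at G523. The 5' end of the stretch held another 5, U292, C294, A295, U296 and C298.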

How the data were processed

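Per the labels, particles were caught by their HTP- or TAP-tagged protein, RNA was extracted with phenol, and cDNA of purified rRNA was primed with random hexamers (SuperScript III). The submitters' processing notes name Novoalign 2.07. The authors deposited mean drop-off rates as a fraction per nucleotide and group in 17 columns, with no replicate values or depths, and how the rate was computed is not given in the sources used here. In RefSeq R64 RDN18-1 and RDN18-2 are each 1800 nucleotides long. The table names no build, so no chromosomal position is given.

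Reactivity used the matched controls: the late control for Nob1, Rio1, 80S-like and 80S, the mid-early control for Enp1, Ltv1, Rio2 and Tsr1, the DMSO column of 80S for NAI on 80S and that of Tsr1 for NAI on Tsr1 and Rio1, and the untreated column of the DMS set for DMS. Nucleotide 1, at a rate of 1 in every column, was left out. The stage test was limma 3.58.1 (R 4.3.3, mean-variance trend) on log2(reactivity + 0.1) for nucleotides that averaged 0.1 or more across the 8 1M7 columns, fitted over the whole molecule with Benjamini-Hochberg adjustment, and tested on simulated data. Structure was predicted with RNAfold 2.7.2. Python 3.11.15, numpy 2.4.6, scipy 1.17.1 and pandas 2.3.3 were used. Alternatives were no subtraction, 1 common control, other pseudocounts, thresholds and folds, a linear scale, no filter, no scaling and leaving out each purification.

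The text could name stops called in the stage test (otherwise the 10 smallest p-values), the 12 highest mean 1M7, 8 highest mean NAI, 10 highest DMS and 6 highest untreated values, the 5 largest rises and falls of 3 pairs, and modified nucleotides with the stop after each. Others were named after their values were seen: those called without 80S, those above or below the control in all treated columns, and single members of predicted loops. The stretch and these lists were chosen with earlier results of these data known.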

Additional observations from a re-analysis of the deposited data

Results flagged for a closer look

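At A366 the Ltv1 column (0.859) lay apart from the other 3 mid-early columns, Rio2, Enp1 and Tsr1, which had 1.42, 1.43 and 1.52. Of 36 groups of 4 columns examined for a value this far from the others 1 was found, and chance flags about 1 in 20.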

How the results depend on the processing

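The count of calls over the molecule, 31, was 16 with no filter, 9 on the linear scale, 5 to 121 with 1 purification left out, 92 without 80S and with 1 common control, and 211 without 80S and with no subtraction, the last pair chosen after seeing the data. In the stretch the count of 0 became 2 with no subtraction, 9 and 18 under that pair, and 0 to 13 with 1 purification left out (13 without 80S, 0 without any 1 of the others). U313 had a log2 difference of -0.27, which changed sign with 1 common control (0.10) and without 80S with 1 common control (0.077), and ranged between -0.58 and 0.0083 (without Tsr1) when 1 purification was left out. A481 ranged between -0.062 (without Enp1) and 1.48, and A529 and C543 had -0.014 and -0.043 with no subtraction. At a reactivity of 0.7 the median column had 18.5 reactive stops, against 47 at 0.3. At a difference of 1 or more the pairs differed at 33 (80S and 80S-like), 27 (Rio1 and Tsr1), 14 (80S and Tsr1), 6 (Tsr1 and Enp1), 9 (80S-like and Nob1), 22 (NAI on 80S and Tsr1) and 10 (NAI on Rio1 and Tsr1) stops. Unpaired minus paired medians gave 0.0065 with the fold from nucleotide 1 and -0.0056 when counted at the listed nucleotide. Adenine preceded 100% of the 10 strongest DMS stops and 96% of the 25 strongest. Apart from the alternative's own construction, the cause of these shifts was not tested. No paired analysis was possible because each column is a mean of the samples of its group. Depth is unknown, so what it limits cannot be stated.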
